A study of Mus musculus with 6 samples.

Results

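The BMP and TGF-beta pathway was followed in mouse embryonic hearts through 46 genes picked by symbol for their place in it: ligands, receptors and co-receptors, Smads, Smad regulators, antagonists and latent TGF-beta binding proteins. Of these, 44 were among the 15330 genes of the table of normalized counts, and Inhbb and Grem1 were not analysed here. RNA came from micro-dissected hearts at embryonic day 9.5 of 2 groups with 3 libraries each. The hearts labelled H2-URI d/d carried, on both alleles, a deletion of 373 kb made with CRISPR-Cas9 in the region upstream of Hand2, and the other hearts were wildtype, with no further allele or treatment named for either group. Each group held 2 libraries labelled female (replicates 1 and 2) and 1 labelled male (replicate 3), all with batch number 1. Strain, the number of hearts in a library and the number of founder lines are not stated in the sources used here, and p-values therefore cover the spread among these 6 libraries, which may be technical. The study asked how far cardiac Hand2 expression depends on this interval and what else differs without it.

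In this pathway, dimeric ligands bring together type I and type II receptor kinases, which phosphorylate receptor Smads. Smad1, Smad5 and Smad9 mainly carry BMP signals and Smad2 and Smad3 mainly TGF-beta and activin signals, and both classes enter the nucleus with Smad4. In the looping heart, BMP ligands from the myocardium and TGF-beta ligands act on the endocardium of the atrioventricular canal and outflow tract, where cushion mesenchyme forms, and Bmp10 supports growth of the trabecular myocardium.

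The libraries held 26016264 to 30117718 reads in the deletion and 25583210 to 32043595 in wild-type hearts. Hand2, a basic helix-loop-helix transcription factor, had 1025, 1158 and 1163 normalized counts in deletion hearts, against 3911, 3789 and 4407 in wild-type hearts. It fell to 27.6% of the wild-type mean (log2 fold change −1.85, SE 0.08, adjusted p = 1.51e-05, limma). Permuting the 6 values exactly (two-sided) gave p = 0.1, the lowest value possible with 3 libraries against 3. Columns were given to samples by the code in the sample titles. For 4 samples the file record names the opposite group. Taking that record instead, Hand2 had a log2 fold change of 0.57. Limma then called 0 of all 15330 genes and so 0 pathway genes, with 1 pathway gene below an unadjusted p of 0.05. All 10 cardiomyocyte markers were measured, with summed levels of 910418 to 998897 normalized counts in deletion and 862171 to 986713 in wild-type hearts.

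Bmp6, Bmp7 and Smad7 transcripts rose in deletion hearts, and those of Tgfb1 and Eng fell. These 5 of 44 measured genes (11.4%) passed an adjusted p of 0.05 in limma, with 3 higher and 2 lower, beside 3.05% of all genes (1.55% higher and 1.5% lower). The genes were chosen with earlier results of these data known, so this share is a description and not a measure of enrichment. The changes were modest, between 1.23-fold and 1.45-fold for the rises and to 70.3% and 74.5% of wild-type for the falls. Fold changes are differences of mean log2(normalized count + 1), deletion minus wild-type, tested with limma and adjusted over all 15330 genes. The same 5 genes passed in edgeR, which called 3.26% of all genes. DESeq2 called 8, and over all 15330 genes it called 1139, against 467 in limma. In bulk tissue, fewer cells of a type and less RNA per cell cannot be told apart.

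**Figure D1:**
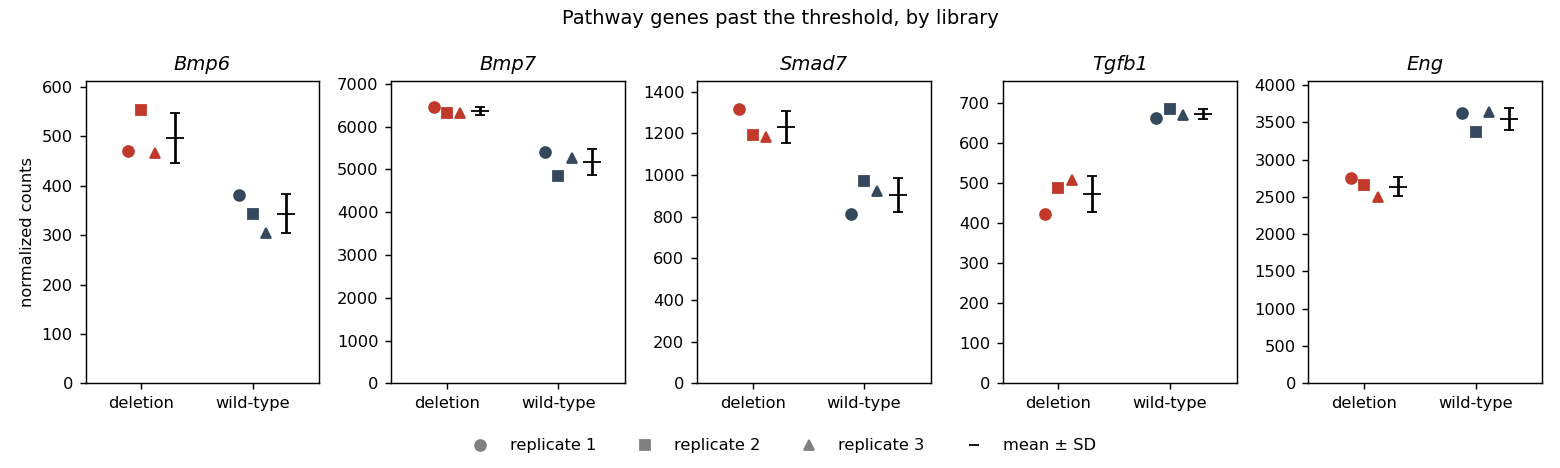
Normalized counts of the 5 pathway genes past the threshold, one point per library, with deletion hearts left of wild-type hearts and the bars at the mean ± SD of 3 libraries. The deletion libraries lie above the wild-type libraries for Bmp6, Bmp7 and Smad7 and below them for Tgfb1 and Eng.

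Among the BMP ligands, Bmp7 was the most abundant per kilobase of transcript. Its level was 6461, 6313 and 6311 normalized counts in deletion hearts, against 5414, 4847 and 5262 in wild-type hearts. Every deletion library was above every wild-type library (log2 fold change 0.30, SE 0.06, adjusted p = 0.0384, limma). Bmp6, a ligand related to Bmp5 and Bmp7 in sequence, had 470, 554 and 465 normalized counts in deletion hearts and 383, 343 and 304 in wild-type hearts. The groups did not overlap, and Bmp6 rose 1.45-fold (log2 fold change 0.53, SE 0.12, adjusted p = 0.0418, limma).

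Bmp4, Bmp5 and Gdf6 had lower mean values without passing. Bmp4, a ligand of outflow tract and cushion development, had 1008, 1225 and 1215 normalized counts in deletion hearts, against 1723, 1419 and 1354 in wild-type hearts. Its groups did not overlap (log2 fold change −0.38, adjusted p = 0.0882, limma). Bmp5 had 2628, 2251 and 2223 in deletion hearts and 2615, 3010 and 3500 in wild-type hearts. Deletion replicate 1 lay just above wild-type replicate 1, so its groups overlapped (−0.36, adjusted p = 0.103, limma), and without wild-type replicate 1 it was called lower (−0.46, adjusted p = 0.0261, limma). Gdf6, a BMP-type ligand at a low level here, had 10.6, 30.6 and 24.8 normalized counts in deletion hearts and 77.2, 144 and 37.5 in wild-type hearts (−1.84, SE 0.50, adjusted p = 0.0785, limma). DESeq2 called these 3 in addition, with adjusted p = 0.0266 for Bmp4, 0.0266 for Bmp5 and 0.0013 for Gdf6. Bmp2, which drives cushion formation from the atrioventricular myocardium, had a log2 fold change of 0.11 (95% interval −0.05 to 0.27), and Bmp10 one of −0.09 (−0.35 to 0.17).

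Set per kilobase of the longest annotated transcript, the 7 BMP ligands summed to 4059 ± 113 normalized counts per kilobase in deletion and 4082 ± 180 in wild-type hearts (SD, n = 3). Within that sum, Bmp7 made up 42.1%, 42.7% and 43.3% in deletion hearts, against 36.5%, 33.6% and 33.5% in wild-type hearts. Bmp4 made up 13.8% ± 1.80 in deletion and 17.8% ± 2.67 in wild-type hearts. Bmp5 made up 15.2% ± 1.03 in deletion and 19.5% ± 2.30 in wild-type hearts. The sums differed by less than their spread, and the Bmp7 share was higher in each deletion library than in any wild-type library. These shares are a description, with no test.

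**Figure D2:**
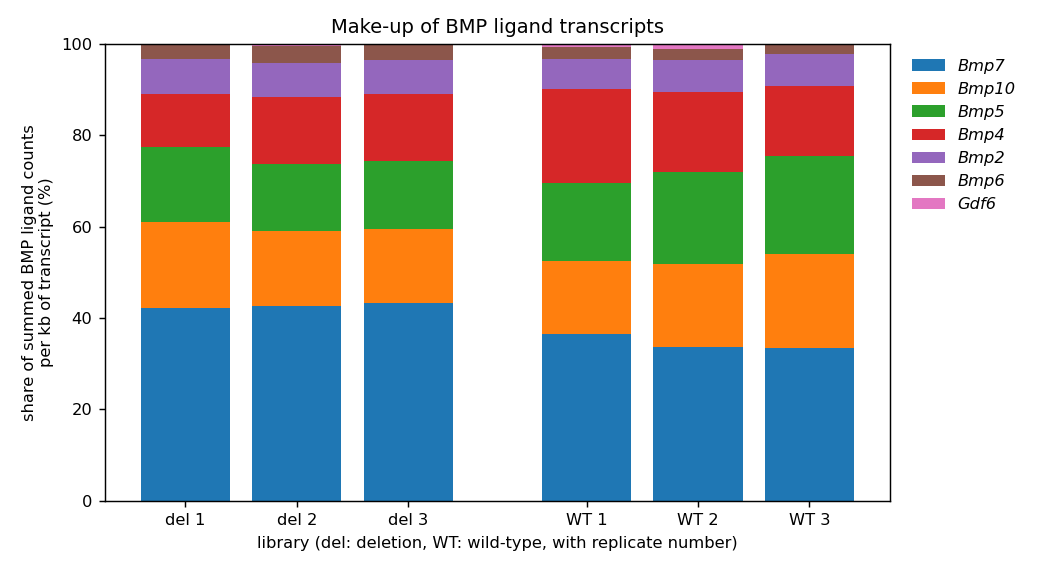
Share of each BMP ligand, in percent of the summed normalized counts per kilobase of longest transcript, with one stacked bar per library and deletion hearts left of wild-type hearts. The Bmp7 part was 42.1% to 43.3% in deletion and 33.5% to 36.5% in wild-type hearts.

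Of the 3 TGF-beta ligands, Tgfb1, which in the embryonic heart is made mainly by endothelial cells, fell. It had 422, 488 and 508 normalized counts in deletion hearts, against 662, 685 and 670 in wild-type hearts. The lowest wild-type library was above the highest deletion library (log2 fold change −0.51, SE 0.09, adjusted p = 0.0204, limma). Tgfb2, the myocardial and cushion ligand, had 3136, 2873 and 3320 in deletion hearts and 2106, 2881 and 2655 in wild-type hearts. These overlapped by a narrow margin and did not pass (0.30, adjusted p = 0.162, limma), nor did Tgfb3 (0.23, 95% interval −0.12 to 0.57). By share of the 3 ligands per kilobase, Tgfb1 held 20.4% ± 1.54 in deletion and 30.9% ± 3.14 in wild-type hearts, and Tgfb2 67.6% ± 2.82 in deletion and 58.3% ± 2.77 in wild-type hearts (SD, n = 3). The activin subunit gene Inhba stood at 25.1 to 44.3 normalized counts in deletion and 23.8 to 46.7 in wild-type hearts, and Gdf11, an activin-type ligand, had a log2 fold change of −0.04.

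With all 6 libraries no kinase receptor gene was called by limma, edgeR or DESeq2, and 1 had an unadjusted p below 0.05 in limma. It was Acvr2b, an activin and BMP type II receptor (log2 fold change 0.17, adjusted p = 0.218, limma). Per kilobase, Bmpr1a, the main BMP type I receptor of the heart, stood highest, at 879 to 958 normalized counts per kilobase in deletion and 875 to 1026 in wild-type hearts. Tgfbr1, the TGF-beta type I receptor, followed at 718 to 780 in deletion and 676 to 809 in wild-type hearts, below Bmpr1a in every library. Among type II receptors, Acvr2b stood at 389 to 427 in deletion and 344 to 390 in wild-type hearts. Bmpr2 stood at 284 to 345 in deletion and 247 to 349 in wild-type hearts, below Acvr2b in every library. Tgfbr2 stood lowest, at 68.1 to 77.9 in deletion and 75.1 to 76.5 in wild-type hearts. Acvr1, a BMP type I receptor of the endocardium, was lower in all 3 deletion libraries without passing (−0.13, 95% interval −0.29 to 0.03). The other log2 fold changes were 0.31 for Bmpr1b, 0.12 for Acvr2a, 0.09 for Acvr1b, 0.03 for Bmpr2, −0.0003 for Tgfbr1, −0.05 for Bmpr1a and −0.08 for Tgfbr2. Acvrl1, the endothelial type I receptor, had the widest interval of this class (0.39, −0.07 to 0.84), with 278, 314 and 256 normalized counts in deletion hearts and 309, 175 and 183 in wild-type hearts. Without wild-type replicate 1, its highest wild-type library, it was called higher (0.65, adjusted p = 0.0276, limma).

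Eng encodes endoglin, an endothelial co-receptor that works with Acvrl1. It had 2748, 2664 and 2502 normalized counts in deletion hearts, against 3620, 3368 and 3636 in wild-type hearts. It fell to 74.5% of the wild-type mean and had the smallest p-value among the 44 genes (log2 fold change −0.42, SE 0.06, adjusted p = 0.0108, limma). Beside it, the 12 measured markers of endothelium and endocardium held 1 gene higher (Kdr, 0.33) and 1 lower (Tek, −0.35), and summed to 27179 to 28368 normalized counts in deletion and 26453 to 28885 in wild-type hearts. The other 10 were not called and ranged from −0.39 for Emcn to 0.31 for Esam. Emcn, an endothelial sialomucin, had 984, 954 and 1112 normalized counts in deletion hearts and 1397, 1201 and 1388 in wild-type hearts (adjusted p = 0.0505, limma, and 0.00704, DESeq2). Plvap, a protein of endothelial diaphragms, had −0.30 (adjusted p = 0.0956, limma, and 0.0348, DESeq2), and Esam an adjusted p of 0.109 in limma. Of the uncalled markers, these 3 and Npr3 (0.11) had groups that did not overlap, as had 27.4% of all genes. Pecam1 and Cdh5, general endothelial genes, had the smallest changes of the list, 0.00 to 2 decimals. The part of these markers in the Eng result was not tested. Exons of Eng overlap those of Fpgs on the opposite strand (Fpgs −0.03), and those of Bmp6 overlap Txndc5 (−0.12), so reads there may be shared. The co-receptors Tgfbr3, or betaglycan (−0.15, 95% interval −0.41 to 0.11), and Rgmb (0.05, −0.15 to 0.25) did not pass.

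**Figure D3:**
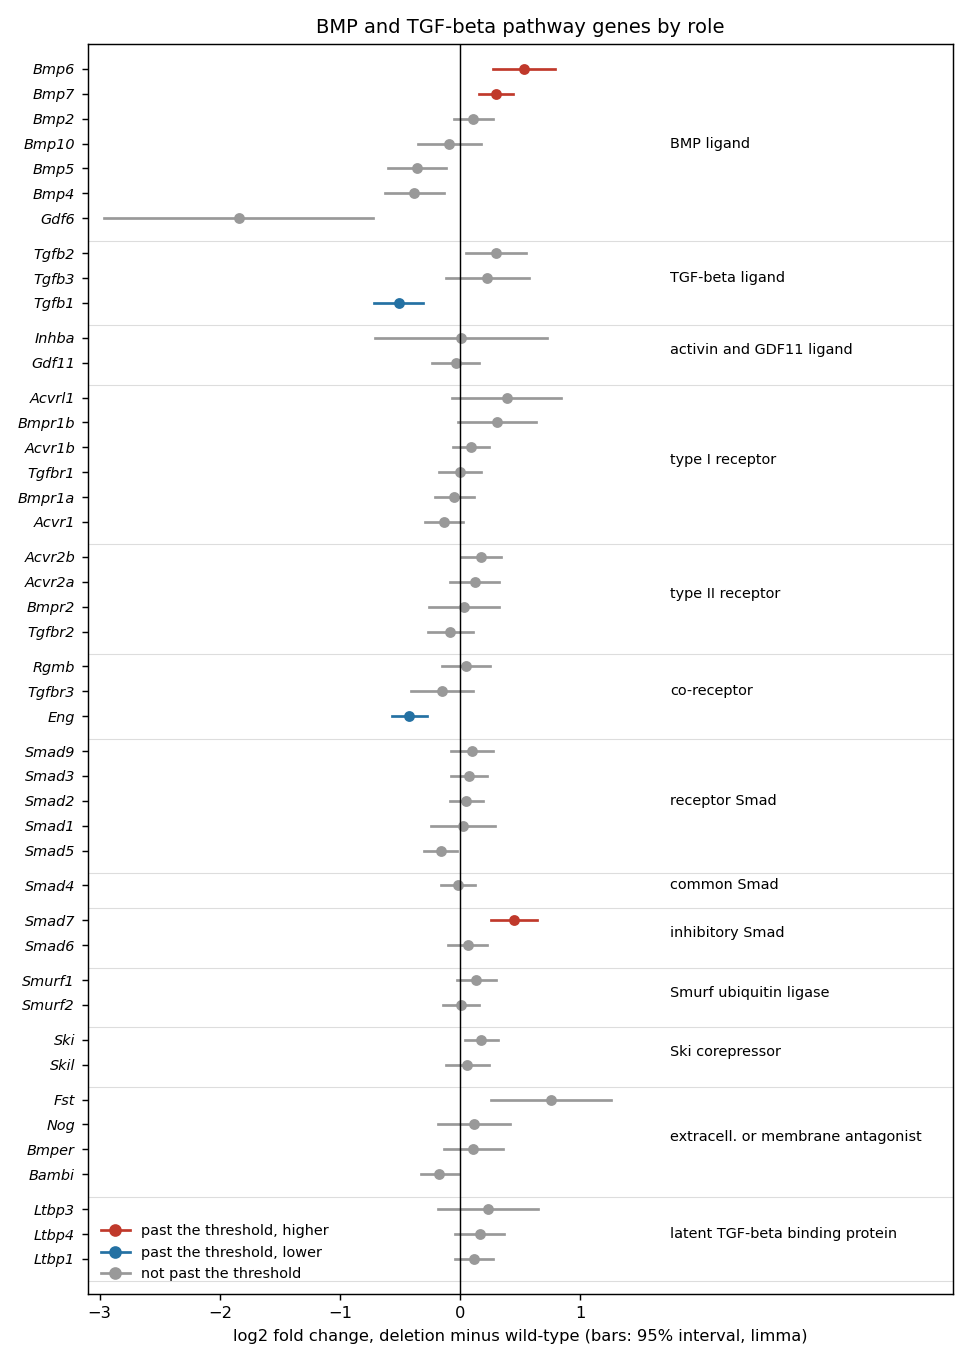
Log2 fold change, deletion minus wild-type, of the 44 measured pathway genes by role, with 95% confidence intervals from limma. The 5 genes past the threshold lie between −0.51 for Tgfb1 and 0.53 for Bmp6, and Gdf6 has the widest interval.

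Smad7, an inhibitory Smad that is itself induced by pathway activity and blocks receptor signalling, was the one intracellular component that passed. Its level was 1319, 1192 and 1183 normalized counts in deletion hearts, against 813, 973 and 922 in wild-type hearts. The groups were separate, with a 1.37-fold rise (log2 fold change 0.45, SE 0.09, adjusted p = 0.0268, limma). Smad6, the inhibitory Smad that acts mainly on BMP signals, had 0.06 with a 95% interval of −0.10 to 0.22. Per kilobase Smad7 made up 26.5% ± 0.93 of the 2 inhibitory Smads in deletion and 21.7% ± 1.92 in wild-type hearts (SD, n = 3). The common Smad4 had −0.02 (−0.16 to 0.13).

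The receptor Smads were not called. Log2 fold changes with 95% intervals were Smad1 0.02 (−0.24 to 0.29), Smad2 0.05 (−0.08 to 0.19), Smad3 0.07 (−0.08 to 0.22) and Smad9 0.10 (−0.08 to 0.27). Smad5, with 2669, 2762 and 2729 normalized counts in deletion and 2874, 3175 and 3081 in wild-type hearts, was lower in each deletion library but did not pass (−0.16, adjusted p = 0.177, limma). The ubiquitin ligases Smurf1 and Smurf2, which mark receptors and Smads for breakdown, had 0.14 and 0.01. Ski, a corepressor of Smad complexes, had 3353, 3299 and 3367 normalized counts in deletion hearts and 2806, 3063 and 3004 in wild-type hearts (0.18, adjusted p = 0.135, limma), and its relative Skil had 0.06.

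Outside the cell, Fst, the activin-binding follistatin, had 97.1, 77.1 and 112 normalized counts in deletion hearts and 62.4, 42.7 and 64.1 in wild-type hearts. It was separate between the groups and did not pass (0.76, SE 0.22, adjusted p = 0.0962, limma). Bambi, a decoy receptor, had 2604, 2593 and 2395 in deletion and 3016, 2663 and 2879 in wild-type hearts (−0.17, adjusted p = 0.193, limma). Noggin (Nog), a BMP trap, had 0.12 (95% interval −0.18 to 0.42) and Bmper, a BMP-binding modulator of endothelium, 0.11 (−0.14 to 0.35). The latent TGF-beta binding proteins, which hold TGF-beta in the matrix, had 0.12 for Ltbp1, 0.23 for Ltbp3 and 0.16 for Ltbp4.

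Over the whole list, 14 of 44 genes (31.8%) had groups that did not overlap, 7 higher and 7 lower, beside 27.4% of all genes. An unadjusted p under 0.05 was reached by 14 (31.8%), beside 21.4% of all genes. The median log2 fold change was 0.06, against −0.0073 over all genes, and the median size of change 0.128, against 0.139. The share with separate groups and the size of change were near the background.

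**Figure D4:**
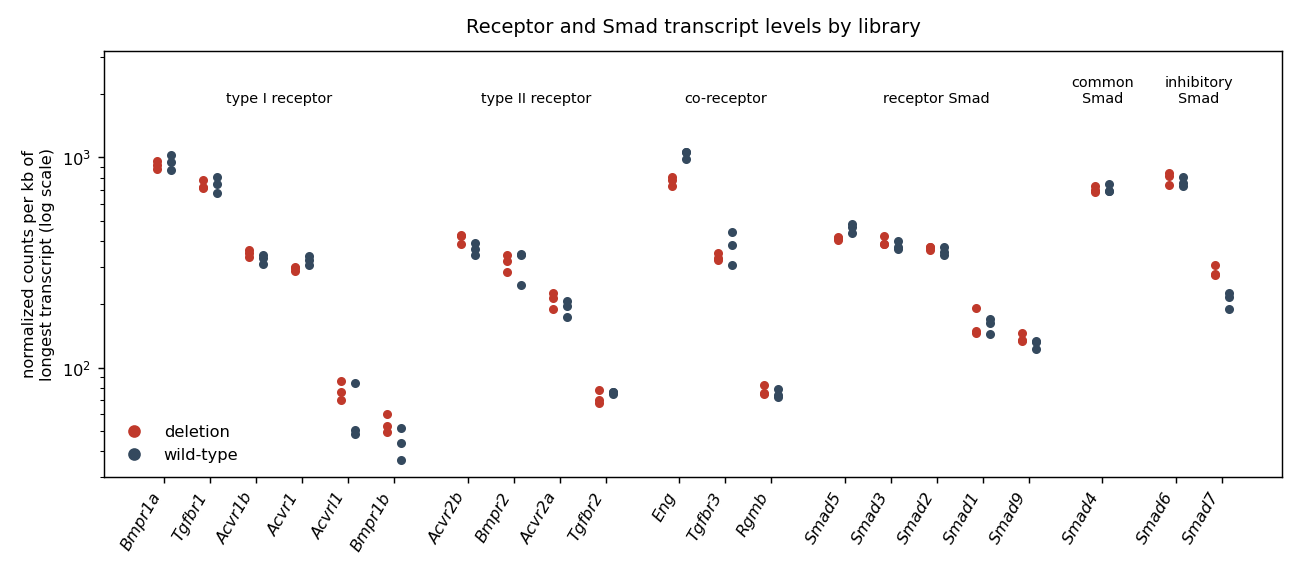
Normalized counts per kilobase of longest transcript for receptors and Smads on a log axis, with deletion hearts left of wild-type hearts and each point one library. Bmpr1a lies at 879 to 958 in deletion and 875 to 1026 in wild-type hearts, and Eng at 731 to 803 in deletion and 984 to 1063 in wild-type hearts.

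For 3 of the 5 called genes a window of 250 bases before the start site was held in RefSeq, and these are shown because the data concern the transcript levels of the genes behind them. Capitals mark matches, on either strand, to CAGAC (a Smad-type element) and CATCTG (an E-box of the kind bHLH factors bind); GGCGCC (a BMP-Smad type element) was also searched.
Bmp6 promoter, GRCm38.p6, chr13:38345466-38345715, plus strand: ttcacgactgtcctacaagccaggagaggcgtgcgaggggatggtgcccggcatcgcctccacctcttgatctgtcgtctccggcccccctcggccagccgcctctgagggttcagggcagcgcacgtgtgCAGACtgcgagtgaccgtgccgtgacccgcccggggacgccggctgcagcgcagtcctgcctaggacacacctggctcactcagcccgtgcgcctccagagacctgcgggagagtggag
Tgfb1 promoter, GRCm38.p6, chr7:25686752-25687001, plus strand: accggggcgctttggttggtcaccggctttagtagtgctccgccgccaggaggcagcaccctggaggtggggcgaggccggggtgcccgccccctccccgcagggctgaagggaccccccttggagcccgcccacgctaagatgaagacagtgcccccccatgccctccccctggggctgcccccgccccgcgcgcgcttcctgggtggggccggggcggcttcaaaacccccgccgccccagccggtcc
Eng promoter, GRCm38.p6, chr2:32646345-32646594, plus strand: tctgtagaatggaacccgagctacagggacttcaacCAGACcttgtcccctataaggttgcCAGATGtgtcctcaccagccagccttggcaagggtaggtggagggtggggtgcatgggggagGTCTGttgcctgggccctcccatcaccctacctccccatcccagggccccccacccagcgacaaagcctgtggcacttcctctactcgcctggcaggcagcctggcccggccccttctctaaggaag
Bmp6 held 1 CAGAC match, Eng 2 CAGAC matches and 1 CATCTG match, and Tgfb1 none of the 3 motifs. CAGAC occurred in 45.4% of the 10529 windows of genes in the table, CATCTG in 11.6% and GGCGCC in 20.1%, and in 48.4%, 9.68% and 29.0% of the 31 pathway genes with a window. A match describes letters in the window and shows no binding.

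Further genes of the pathway, 69 measured of 89 listed, included 9 past the threshold (13.0%), 4 higher and 5 lower, beside 3.05% of all genes. As this list was chosen with earlier results of these data known, its share is a description and not a measure of enrichment. Among extracellular modulators 4 of 23 rose and 2 fell. Tll1, a tolloid-type protease that cleaves the BMP antagonist chordin, had 601, 609 and 521 normalized counts in deletion hearts and 177, 184 and 174 in wild-type hearts (log2 fold change 1.68, adjusted p = 5.19e-05, limma). Sost, a secreted antagonist of Wnt signalling that also binds BMPs, had 1083, 1172 and 1038 in deletion and 400, 360 and 353 in wild-type hearts (1.56, adjusted p = 3.91e-05, limma). For both, every deletion library was far above every wild-type library. The fibrillin gene Fbn2 (0.55) and Nrros, which anchors latent TGF-beta (0.70), also rose, and the matrix genes Bgn (−0.69) and Emilin1 (−0.54) fell.

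Among 16 known targets 2 fell and 0 rose, beside 3.05% of all genes called. An unadjusted p under 0.05 in limma was reached by 8 of them, 4 higher and 4 lower, beside 21.4% of all genes. Groups did not overlap for 7, 4 higher and 3 lower, beside 27.4% of all genes. Tgfbi, a matrix protein induced by TGF-beta, had 188, 243 and 246 normalized counts in deletion hearts and 631, 727 and 620 in wild-type hearts (log2 fold change −1.55, adjusted p = 3.35e-04, limma). Msx1, a homeobox target of BMP signals in cushion mesenchyme, had 355, 319 and 294 in deletion and 548, 458 and 448 in wild-type hearts (−0.58, adjusted p = 0.0292, limma). The general BMP targets Id1, Id2, Id3 and Id4 did not pass, with −0.06, 0.04, −0.12 and 0.23. Ccn2, a TGF-beta target, did not pass either (0.74, adjusted p = 0.0791, limma). Ccn1 (0.27), Tbx2 (0.31) and Hey1 (0.28) were higher without passing in limma, with groups that did not overlap. Snai1 (−0.64) and Cdkn1a (−0.34) were lower without passing, and the groups of Cdkn1a overlapped. DESeq2 called Ccn1 in addition (adjusted p = 0.0181). Tdgf1, the Nodal co-receptor cripto, fell to 132, 181 and 82.1 normalized counts in deletion hearts, against 647, 651 and 603 in wild-type hearts (−2.33, adjusted p = 0.00139, limma). Of 24 intracellular regulators, limma, edgeR and DESeq2 called 0, and 1, Wwp2, had an unadjusted p below 0.05 in limma.

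**Figure D5:**
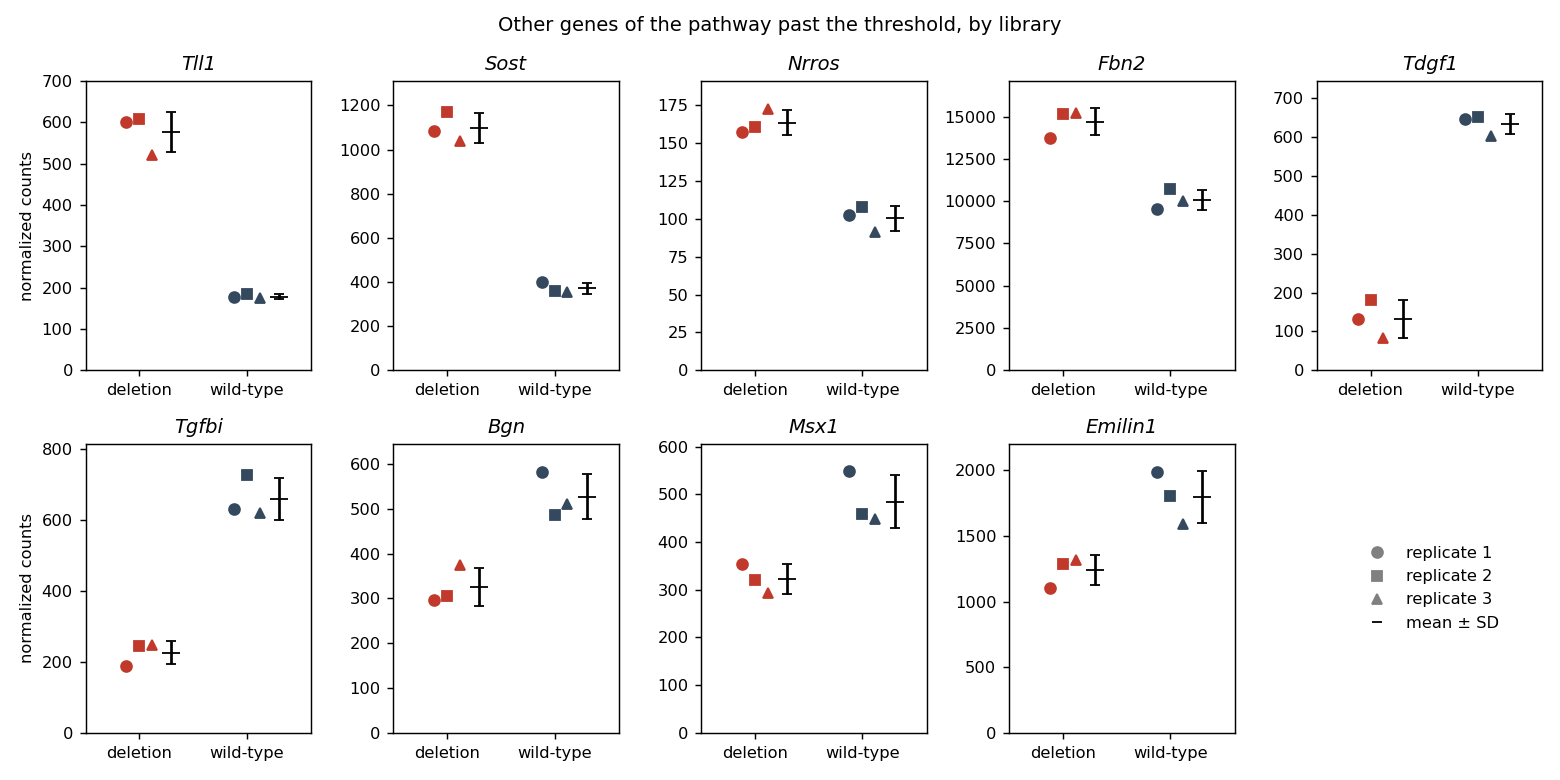
Normalized counts of the 9 further pathway genes past the threshold, with deletion hearts left of wild-type hearts, each point one library and bars at the mean ± SD. Tll1, Sost, Fbn2 and Nrros lie higher in all 3 deletion libraries, and Tdgf1, Tgfbi, Bgn, Msx1 and Emilin1 lower.

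Markers of other cells moved beside these genes. Among 10 cushion and mesenchyme markers 3 fell (Twist1 −1.14, Postn −1.27, Pdgfrb −0.83) and Meox1 rose, beside 3.05% of all genes called. Their sums were 4200 to 5929 normalized counts in deletion and 5480 to 8716 in wild-type hearts. The uncalled mesenchyme markers were mixed, with −1.85 for Lum, −1.03 for Col1a1, −0.16 for Pdgfra, −0.04 for Prrx1, 0.04 for Col1a2 and 0.14 for Sox9. Of 8 epicardial markers Krt19 rose, and the summed level was 4496 to 6034 in deletion and 2754 to 3952 in wild-type hearts. Most of the sum was Krt19 (means of 2351 in deletion and 1299 in wild-type hearts) and Tbx18 (1370 and 815). The uncalled markers had log2 fold changes of 0.88 for Tcf21, 0.72 for Tbx18, 0.47 for Wt1 and 0.22 for Upk1b. Bnc1 had 0.13, Aldh1a2 0.08 and Upk3b −0.12. Erythroid markers ran from 84084 to 448142 in deletion and from 118589 to 346674 in wild-type hearts. Of the 8 macrophage markers only Csf1r was among the rows, at 47.5, 52.9 and 51.8 in deletion and 30.7, 65.8 and 38.4 in wild-type hearts. Of 5 neural crest markers 2 were measured, with sums of 1759 to 1902 in deletion and 2170 to 2329 in wild-type hearts. Nearly all of the sum was Ets1, which fell (means of 1807 in deletion and 2230 in wild-type hearts). Tfap2a had 16.9, 17.6 and 35.6 in deletion and 42.0, 65.8 and 11.9 in wild-type hearts, and its groups overlapped. Sox10, Foxd3 and Tfap2b were not among the rows, so the sum describes Ets1 more than neural crest. The part of these in the pathway results was not tested.

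Each of the 5 calls was lost in some fits with 1 library left out, while the log2 fold changes kept their sign. These ran from 0.45 to 0.61 for Bmp6, 0.25 to 0.33 for Bmp7 and 0.38 to 0.51 for Smad7. For Tgfb1 they ran from −0.57 to −0.43 and for Eng from −0.46 to −0.39. Calls over all genes went from 467 to 138, 103 and 165 without deletion replicates 1, 2 and 3. Without wild-type replicate 3 they were 168. Bmp6 had an adjusted p in limma of 0.113, 0.185 and 0.103 without deletion replicates 1, 2 and 3 and 0.135 without wild-type replicate 3, Bmp7 0.164, 0.158, 0.133 and 0.104, and Smad7 0.123, 0.104, 0.0806 and 0.0777 in the same order. Tgfb1 had 0.0912 and 0.0873 without deletion replicates 1 and 2 and 0.0731 without wild-type replicate 3, and Eng 0.0639 and 0.0589 without deletion replicates 2 and 3. With sequence-length and GC trends removed from each library, Bmp7 (0.21, adjusted p = 0.107) and Smad7 (0.33, adjusted p = 0.0962) were not called. Without an intensity trend the 5 genes had adjusted p from 0.0652 to 0.123, and in the 4 female samples from 0.147 to 0.284. With sex as a covariate Bmp7 had 0.0654. Tdgf1, Tll1, Sost, Tgfbi and Fbn2 were called whichever library was omitted, though Fbn2 was not in the 4 female samples (0.148). Without an intensity trend Bgn (0.0653), Emilin1 (0.101) and Msx1 (0.0845) were not called. Without single libraries the other calls ended: Nrros without any 1 of the deletion libraries or wild-type replicate 3 (0.103 to 0.125), Msx1 likewise (0.061 to 0.126), Bgn without deletion replicate 1 or 2 or wild-type replicate 3 (0.0597 to 0.0951) and Emilin1 without any 1 of the deletion libraries (0.0594 to 0.0971).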

How the data were processed

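RNA-seq of 6 heart libraries was analysed, with groups from the genotype label. The libraries were stranded and poly(A)-selected, from 300 ng of total RNA, per the labels' protocols. GRCm39, STAR 2.7.9a, DESeq2 1.30.1, featureCounts (Subread 2.0.1) and bcl2fastq 2.20 appear in the submitters' processing notes. The deposited values are normalized counts, a signal the authors made, per the file headers, by dividing reads by a size factor; all came out as whole reads within a tolerance of 0.01. The strand setting of the counting is not given in the sources used here, and Bmp6, Eng, Acvr2a and Ltbp3 share exon positions with a gene on the other strand. Genes were tested with the limma-trend method in R 4.3.3 (limma 3.58.1) after adding a pseudocount of 1 and taking log2, two-sided, Benjamini-Hochberg adjusted over all genes with a mean of at least 10, which removed none. edgeR 4.0.16 and DESeq2 1.42.0 were run on the recovered reads. The limma and edgeR fits were tried on 3 sets of simulated counts with 200 changed genes each. At an adjusted p of 0.05, 8.76% of the calls were false in limma and 9.00% in edgeR, above the nominal share. Of the simulated 1.5-fold changes, limma called 60.2% and edgeR 63.2%. GENCODE M21 on GRCm38 gave transcript lengths, and RefSeq (GRCm38.p6) the promoter sequences. The pathway genes and lists were chosen with earlier results of these data known. Every called gene of the 44 and of the further pathway list is named, and so are those of the 44 with an unadjusted p under 0.05; the rest of the 44 are given by role, and uncalled genes of the further list were named after their values were seen. Alternatives covered pseudocount, filter, scaling, variance model, tool, sex, replicate block, length and GC trend, the recorded file assignment and each library left out.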

Additional observations from a re-analysis of the deposited data

How the results depend on the processing

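Among the 44 pathway genes 5 were called. The count was 8 in DESeq2, 0 without an intensity trend (10 at an unadjusted p under 0.05, limma), 0 in the 4 female samples (9 unadjusted, limma) and 0 under the recorded file assignment (1 unadjusted, limma), where the Hand2 log2 fold change was 0.57. With each library left out it ran from 0, without deletion replicate 2 (11 unadjusted, limma), to 7, without wild-type replicate 1, where Bmp5 and Acvrl1 were added. The replicate block left 1 call (Eng), and 2 (Tgfb1 and Eng) with the length and GC trend also removed. Deviations from the group mean correlated at −0.03, −0.12 and −0.14 between same-numbered deletion and wild-type libraries. Between differently numbered ones they correlated at −0.16 to 0.25, so same-numbered libraries were no more alike. With 3 libraries per group, these correlations cannot settle whether the numbers pair the libraries. Over all genes the fit with the block made 206 calls, against 467 without it. The further pathway genes had 9 calls, 5 in the 4 female samples and 5 to 11 with a library left out. Fits with fewer samples have less power. Higher calls over all genes were 237 of 467, 393 of 602 with totals without haemoglobin and 195 of 504 with the length and GC trend removed. Calls over all genes were 1139 in DESeq2, 146 without an intensity trend and 103 to 1161 with a library left out. They were 35 in the 4 female samples and 0 under the recorded file assignment. Of the 39 uncalled pathway genes 12 changed sign in at least 1 of the processing alternatives or fits with a library left out, and 4 were called in at least 1. Gdf6 and Inhba have too few reads for a small difference to be detected.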

Other observations

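Wild-type replicate 1 stood apart from the other wild-type libraries in some BMP targets and epithelial markers, named after their values were seen. Id1 had 1264, 1401 and 1100 normalized counts in deletion hearts and 1867, 1118 and 1058 in wild-type hearts, and Id3 had 2237, 2519 and 2170 in deletion and 3297, 2044 and 2338 in wild-type hearts. Epcam, an epithelial adhesion gene, had 112, 113 and 189 in deletion and 263, 101 and 54.0 in wild-type hearts, and Cldn6 171, 157 and 191 in deletion and 429, 92.5 and 78.7 in wild-type hearts. Bmp4 and Acvrl1 were also highest in that wild-type library. Other BMP targets and epithelial markers did not set it apart. In wild-type replicates 1, 2 and 3, Msx2 had 710.5, 750.8 and 578.4 and Krt8 3334, 3365 and 2603. Whether the high values in wild-type replicate 1 share a source was not tested.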
